A study of Arabidopsis thaliana with 4 samples.

Results

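The transposable element genes of chromosome 4 of Arabidopsis thaliana were followed by their small RNAs in rpt2a mutant seedlings and in control seedlings. Members were the entries of the gene table whose identifier starts with AT4G and carries the mark for a transposable element gene (TE gene), which gave 711 of 38194 entries and 711 of 3897 TE genes. They were put in order of locus number and divided into the distal short arm (16 members), the knob, AT4G03600 to AT4G04700 (114 members), the stretch from the knob to the pericentromere (33 members), the pericentromere, AT4G05600 to AT4G08999 (440 members), and the long arm (108 members). The bounds of the segments are locus numbers set without coordinates, and chromatin was not measured in these libraries, so the knob and the pericentromere are intervals of locus numbers.

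The study compared PORI rpt2a seedlings with PORI seedlings, both at 10 days after germination, with 2 libraries per genotype. PORI is the control line, and its name is in the labels of both groups. These labels leave its meaning open and name neither the rpt2a allele nor the ecotype. Mutant libraries are labelled PORIxrpt2a, which reads as a cross of PORI with rpt2a, and are called PORI rpt2a here. Whether the groups also differ elsewhere in the genome, for example beside the rpt2a locus on the chromosome studied, was not tested. Any such difference would coincide with the genotype compared here. RPT2a is an ATPase subunit of the proteasome's regulatory particle, and the title of the series links it to post-transcriptional gene silencing (PTGS) and RNA quality control.

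TE genes are annotated open reading frames of transposons and their relics. In plants their silencing runs through small interfering RNAs (siRNAs) cut by Dicer-like enzymes. The 24 nt class is made from RNA polymerase IV transcripts by DCL3 and guides DNA methylation, whereas DCL4 and DCL2 make the 21 nt and 22 nt classes, which are the sizes of PTGS and of secondary siRNAs from transcribed transposons. Most TE genes of Arabidopsis lie in the pericentromere, the heterochromatin that flanks the centromere. Chromosome 4 of the reference accession also has a heterochromatic knob on its short arm, which arose through a paracentric inversion and is rich in transposons although it lies apart from the centromere.

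The 2 PORI rpt2a libraries held 74121 and 26122 counts at the members, the 2 PORI libraries 45003 and 30919. These were 1.54% and 0.905% of the gene-table counts in PORI rpt2a, against 0.958% and 0.766% in PORI. Gene-table totals were 4806891 and 2886928 for PORI rpt2a, against 4696170 and 4038459 for PORI. PORI rpt2a replicate 2 was the shallowest library and stood apart in read length, with 15.2% of its gene counts at 18 nt, against 7.75% to 9.48% in the other libraries. Across members of at least 50 counts, log2 levels correlated at 0.872 between the PORI rpt2a libraries and at 0.920 between the PORI libraries, and at 0.642 to 0.804 across genotypes. Of the 711 members, 10 had no count in any library, 596 had counts in every library, and 533 passed the low-count filter of the test over all lengths. Whether replicates are separate plant cultures is not stated in the labels, and the spread that the p-values rest on may therefore be technical. Small RNA counts at RPT2A itself (38 and 8 in PORI rpt2a, 27 and 21 in PORI) do not report its mRNA and check no genotype.

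Summed over all 711 members, small RNAs were more abundant in PORI rpt2a, at 13393 and 12944 CPM, against 7841 and 7531 CPM in PORI. CPM are counts scaled to a TMM-adjusted gene-table total of 1000000, over all lengths from 18 to 26 nt, and are not divided by gene length. Means were 13168 ± 317 CPM in PORI rpt2a and 7686 ± 219 CPM in PORI (SD, n = 2 each), a log2 difference of 0.78 or 1.71-fold, and the genotypes did not overlap on this scale. The TMM factors were 1.15 and 0.70 in PORI rpt2a, against 1.22 and 1.02 in PORI. Scaled to the gene-table total without these factors, a setting added after the data were seen, the sums were 15420 and 9048 in PORI rpt2a against 9583 and 7656 in PORI, a log2 difference of 0.46 with overlap. An exact two-sided permutation test of 2 against 2 libraries cannot go below p = 0.333, which this comparison gave, so no sum or share reported here could pass 0.05. In RNA from seedlings, more siRNA per cell cannot be told apart from more cells that make it.

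The difference was unequal along the chromosome in these libraries. Pericentromeric TE genes together had 9194 and 8997 CPM in PORI rpt2a, against 4602 and 4372 CPM in PORI, a log2 difference of 1.02 (2.03-fold). TE genes of the knob had 1879 and 1882 CPM in PORI rpt2a, against 1285 CPM in each PORI library, a log2 difference of 0.55 (1.46-fold). In both segments the PORI rpt2a libraries lay above the PORI libraries. The member with the most counts held 13.0% of the counts of the knob (AT4G03920) and 5.47% of those of the pericentromere (AT4G06477).

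Between the knob and the pericentromere the sum was 998 and 1030 CPM in PORI rpt2a, against 729 and 699 CPM in PORI, a log2 difference of 0.51. Long-arm members had 1080 and 891 CPM in PORI rpt2a, against 967 and 933 CPM in PORI (log2 difference 0.05), and there the genotypes overlapped. On the distal short arm the sum was 240 and 145 CPM in PORI rpt2a, against 257 and 242 CPM in PORI, so that PORI rpt2a lay lower by a log2 difference of -0.42. Without PORI rpt2a replicate 2 that difference was -0.05, and without PORI rpt2a replicate 1 it was -0.79. By size, 24 nt reads of the distal short arm lay lower in PORI rpt2a (log2 difference -0.61). Its 21 nt and 22 nt reads lay higher without overlap in CPM (0.46 and 0.40). With library sizes from the 3 deposited tables, these 21 nt and 22 nt sums overlapped.

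**Figure D1:**
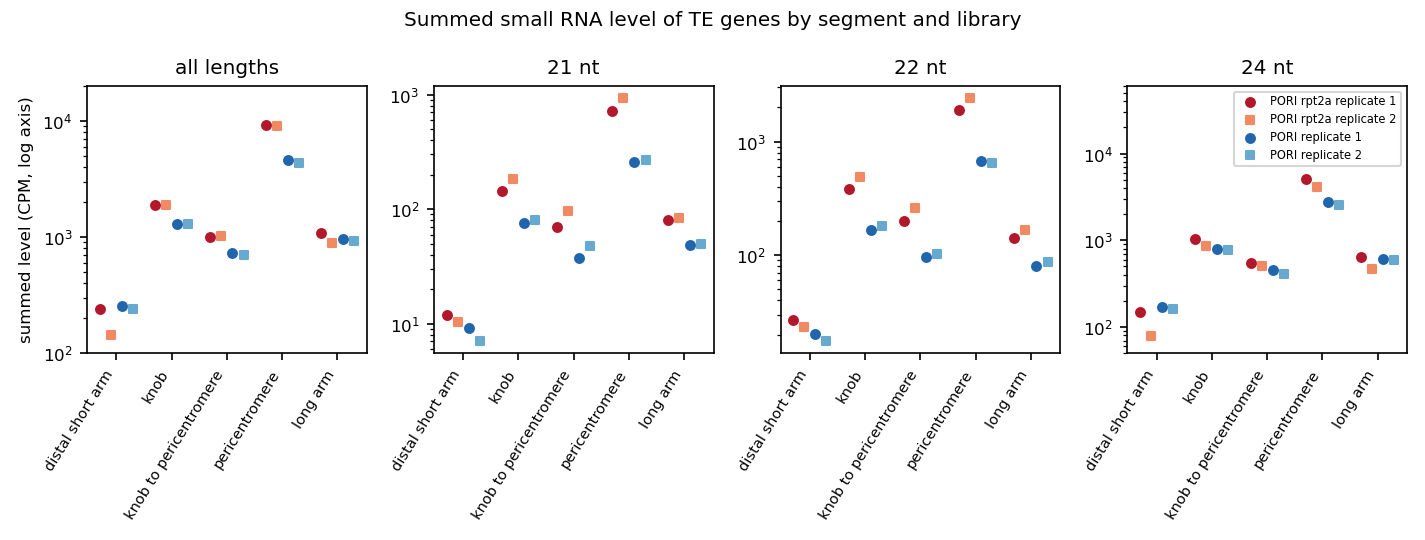
Summed small RNA level of the TE genes of each chromosome 4 segment (x axis), in CPM on a log axis (y axis), for reads of all lengths and of 21, 22 and 24 nt; each point is 1 library. Pericentromeric sums of PORI rpt2a (9194 and 8997 CPM over all lengths) lie above those of PORI (4602 and 4372 CPM), while the genotypes overlap on the long arm.

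The ratio of the knob to the pericentromere within a library does not depend on library size. Its log2 was -2.29 and -2.26 in PORI rpt2a, against -1.84 and -1.77 in PORI, a difference of -0.47 (exact permutation p = 0.333). The same difference was -0.59 for 21 nt, -0.39 for 22 nt and -0.49 for 24 nt reads, and for each of the 3 lengths both PORI rpt2a libraries lay below both PORI libraries. Relative to the pericentromere, the knob was thus lower in both PORI rpt2a libraries. The long arm was so too, with a log2 ratio to the pericentromere of -3.09 and -3.34 in PORI rpt2a against -2.25 and -2.23 in PORI.

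Seen as shares of the members' counts, the pericentromere took 68.7% and 69.5% in PORI rpt2a, against 58.7% and 58.1% in PORI. The knob took 14.0% and 14.5% in PORI rpt2a, against 16.4% and 17.1% in PORI. Long-arm members took 8.07% and 6.88% in PORI rpt2a, against 12.3% and 12.4% in PORI. Every segment other than the pericentromere held a smaller share in both PORI rpt2a libraries than in either PORI library. The shares of a library add up to all of its member counts, so a larger share of the pericentromere lowers the others together. A smaller share is therefore not a lower level, and the CPM sum of the knob was higher in PORI rpt2a.

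The size of these sums depended on the library size used. With the 3 deposited tables together scaled to 1000000, here called the 3-table scale, the pericentromere had 8647 and 5601 in PORI rpt2a against 4549 and 3732 in PORI (log2 difference 0.76), still without overlap. On that scale the knob had 1768 and 1172 in PORI rpt2a against 1270 and 1097 in PORI, a log2 difference of 0.29 with overlap. On the same scale the long arm lay at a log2 difference of -0.22, and the median over the 8110 genes tested was -0.25, against -0.03 with TMM scaling. Scaled to the gene-table total alone, the pericentromere had 10586 and 6289 in PORI rpt2a against 5624 and 4445 in PORI, still without overlap, and the knob 2164 and 1316 in PORI rpt2a against 1571 and 1306 in PORI, with overlap.

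Bins of 50 consecutive members gave the differences along the locus order. In the first 3 bins, which run from AT4G01490 through the knob to AT4G05582, the median log2 fold change of the tested members was 0.26, 0.04 and 0.20. In the fourth, from AT4G05583 to AT4G06505, it was 1.54. The next 7 bins, up to AT4G08111, had medians between 0.81 and 1.34. From AT4G08112 the median was 0.10, and in the last 3 bins, from AT4G08956 to the end of the long arm, it was 0.07, -0.16 and -0.16. The fourth bin spans the start of the pericentromere as delimited here, and the twelfth, which starts at AT4G08112, lies inside it. The summed CPM of the bins stepped otherwise, with log2 differences of 0.41, 0.51 and 0.13 in the first 3 bins and 0.54 in the fourth. They were between 1.05 and 1.68 in the next 7 bins, 0.46 in the twelfth and 0.06, 0.07 and -0.25 in the last 3. Bins of this width do not place the steps of either measure more closely.

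**Figure D2:**
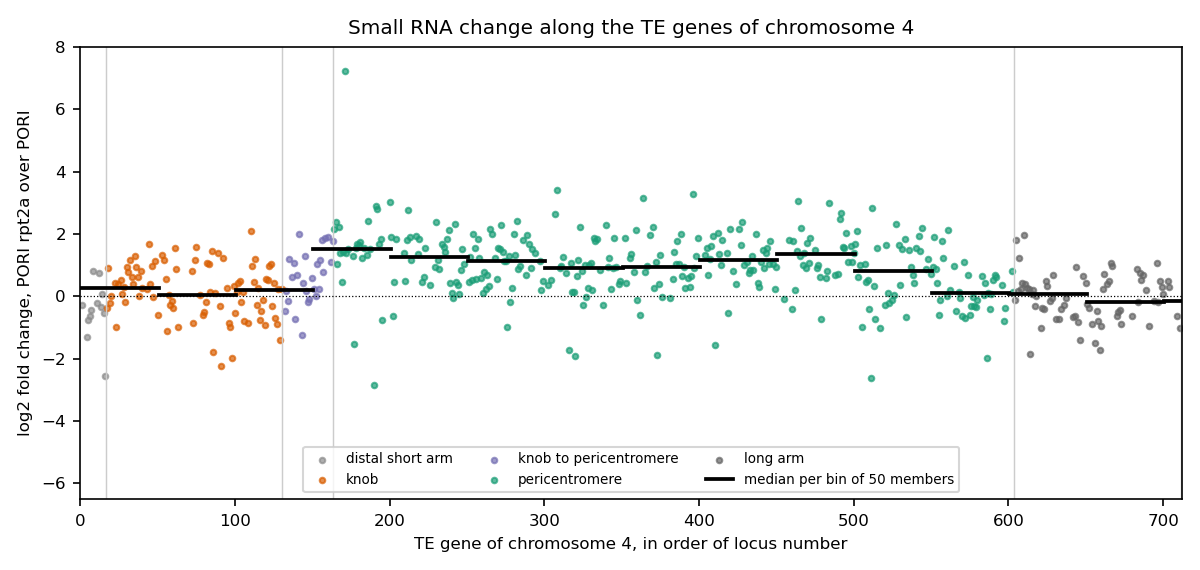
Log2 fold change of small RNA counts of all lengths (y axis, PORI rpt2a over PORI, edgeR) for each tested TE gene in order of locus number (x axis), coloured by segment, with black bars for the median of each bin of 50 members. Bar heights lie between 0.04 and 0.26 through the knob, between 0.81 and 1.54 through most of the pericentromere, and between -0.16 and 0.10 beyond AT4G08112.

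Reads of 21 and 22 nt took larger shares and reads of 24 nt smaller shares in both PORI rpt2a libraries than in either PORI library, in all 5 segments. Over all members the 22 nt share was 19.7% and 25.8% in PORI rpt2a, against 13.2% and 13.7% in PORI. At 24 nt, it was 55.3% and 46.2% in PORI rpt2a, against 61.2% and 59.9% in PORI. At 21 nt, it was 7.63% and 10.1% in PORI rpt2a, against 5.47% and 5.99% in PORI. The widest 95% Wilson interval of these shares, which covers counting error only, was 45.6% to 46.8% for 24 nt reads of PORI rpt2a replicate 2. PORI rpt2a replicate 2, the library with more 18 nt reads, lay farthest from PORI in each of the 3 shares. Its part in the means was not tested further than by leaving it out.

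In the knob, 22 nt reads made up 20.3% and 25.7% in PORI rpt2a, against 13.0% and 14.0% in PORI. Pericentromeric members had 22 nt shares of 20.6% and 26.8% in PORI rpt2a against 14.6% and 14.7% in PORI. The 24 nt share was 54.9% and 45.4% in the knob and 54.7% and 45.4% in the pericentromere of PORI rpt2a, against 61.4% and 59.8% in the knob and 60.3% and 59.0% in the pericentromere of PORI. Within each library the 22 nt shares of knob and pericentromere lay closer to each other than to that of the long arm, although in PORI replicate 1 their 95% Wilson intervals, 12.2% to 13.7% in the knob and 14.2% to 15.05% in the pericentromere, did not meet.

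Long-arm members carried fewer 22 nt reads in both genotypes, 13.1% and 18.7% in PORI rpt2a against 8.23% and 9.38% in PORI, with 24 nt shares of 58.9% and 52.3% in PORI rpt2a against 63.4% and 63.1% in PORI. On the distal short arm the 22 nt share was 11.1% and 16.1% in PORI rpt2a, against 7.92% and 7.24% in PORI. The number of 24 nt reads per 22 nt read summarises these shares. It was 2.70 and 1.76 in the knob of PORI rpt2a against 4.74 and 4.26 in PORI, and 2.65 and 1.69 in the pericentromere of PORI rpt2a against 4.12 and 4.02 in PORI. On the long arm it was 4.50 and 2.80 in PORI rpt2a against 7.70 and 6.73 in PORI. Across the gene table as a whole, with all counts pooled, the 22 nt share was 12.0% and 11.1% in PORI rpt2a and 11.0% in each PORI library. Taken gene by gene over the whole gene table, members included, the 22 nt share was mostly higher in PORI rpt2a. Its median difference was 2.90 points over the 4324 genes of at least 100 counts, against 6.54 points over the 374 such members.

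**Figure D3:**
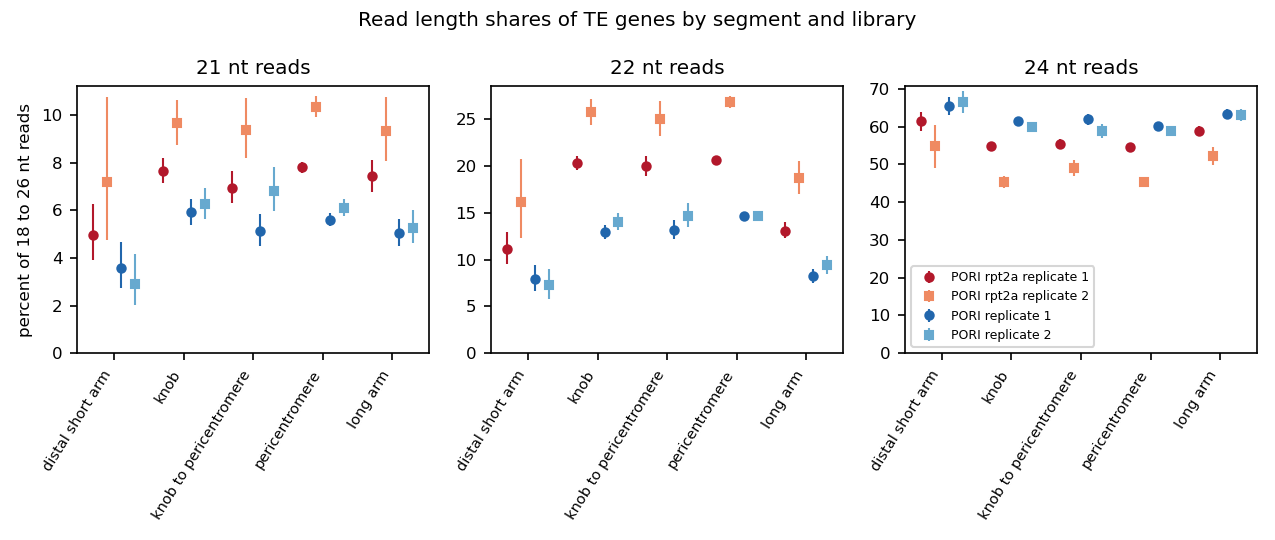
Percent of 18 to 26 nt reads that were 21, 22 or 24 nt long (y axis) in the TE genes of each segment (x axis), for each library, with 95% Wilson intervals for counting error. In the knob the 22 nt share is 20.3% and 25.7% in PORI rpt2a against 13.0% and 14.0% in PORI, and the 24 nt share 54.9% and 45.4% against 61.4% and 59.8%.

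Taken by level, each of the 3 sizes was more abundant in the pericentromere of PORI rpt2a. At 22 nt the pericentromere had 1896 and 2412 CPM in PORI rpt2a, against 673 and 642 CPM in PORI, a log2 difference of 1.70. At 21 nt it had 717 and 930 CPM in PORI rpt2a, against 258 and 267 CPM in PORI, a log2 difference of 1.64. At 24 nt it had 5032 and 4081 CPM in PORI rpt2a, against 2775 and 2578 CPM in PORI, a log2 difference of 0.76. All of these levels use the library size of all lengths, and for none of the 3 sizes did the genotypes overlap. They therefore include any shift of a size that all genes share. In the fits scaled within a length, the median log2 fold change of tested pericentromeric members was 1.31 at 21 nt, 0.74 at 22 nt and 0.82 at 24 nt. Over all genes tested it was -0.10, 0.03 and -0.05. On the 3-table scale the pericentromeric 24 nt sums overlapped, at 4733 and 2541 in PORI rpt2a against 2743 and 2200 in PORI.

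The knob had 381 and 484 CPM of 22 nt reads in PORI rpt2a, against 167 and 180 CPM in PORI, a log2 difference of 1.31. Its 21 nt reads were at 144 and 182 CPM in PORI rpt2a, against 76.0 and 80.4 CPM in PORI, a log2 difference of 1.05. Its 24 nt reads were at 1032 and 854 CPM in PORI rpt2a, against 790 and 768 CPM in PORI, a log2 difference of 0.27. On the 3-table scale the 24 nt difference in the knob was 0.01, while the 21 nt and 22 nt differences were 0.79 and 1.05. On the long arm the 24 nt sum was 637 and 466 CPM in PORI rpt2a, against 613 and 589 CPM in PORI, with overlap, whereas 22 nt reads were at 141 and 166 CPM in PORI rpt2a, against 79.6 and 87.4 CPM in PORI, a log2 difference of 0.88. In the 22 nt fit, which is scaled within that length, the 17 tested long-arm members had a median log2 fold change of 0.03, with 9 above 0. The 32 tested knob members had a median of 0.42 there, with 20 above 0. Knob medians in the 21 nt and 24 nt fits were 0.82 and 0.07.

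**Figure D4:**
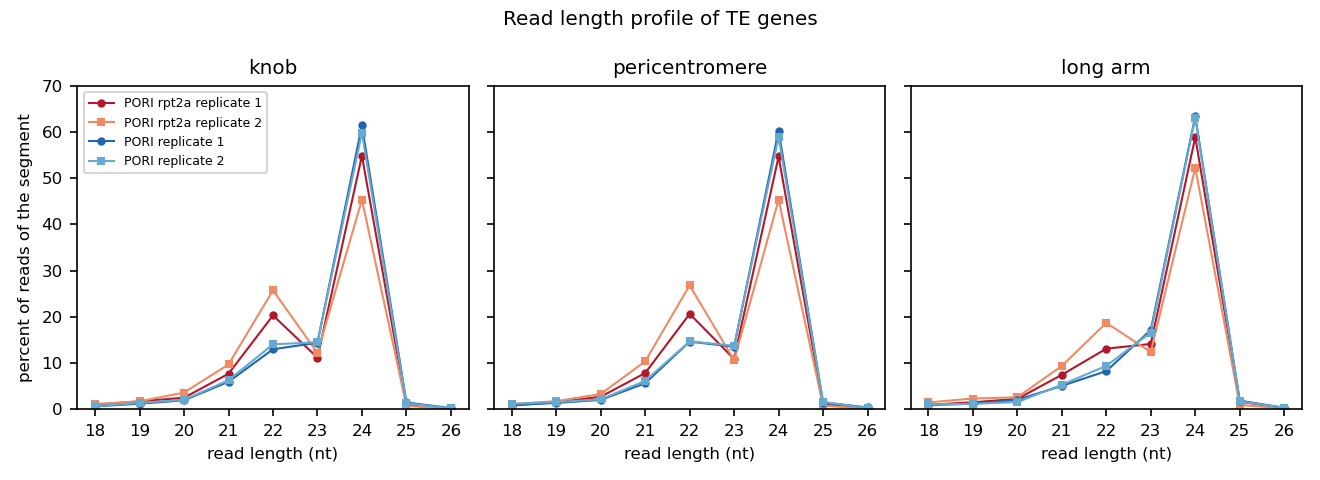
Percent of the reads of a segment (y axis) at each length from 18 to 26 nt (x axis) for the TE genes of the knob, the pericentromere and the long arm, with 1 line per library. All 4 libraries peak at 24 nt in the 3 segments, and at 22 nt the PORI rpt2a lines lie above the PORI lines (knob, 20.3% and 25.7% against 13.0% and 14.0%).

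Gene by gene, no member passed the edgeR quasi-likelihood test at a Benjamini-Hochberg adjusted p of 0.05, over all lengths or at 21, 22 or 24 nt. Over all lengths 0% of the 8110 genes tested were called higher and 0.0247% lower, and at 21, 22 and 24 nt 0% were called in either direction. The smallest adjusted p among the members was 0.0684 over all lengths, 0.0889 at 21 nt, 0.0634 at 22 nt and 0.0767 at 24 nt. At an unadjusted p under 0.05 there were 223 of 533 members over all lengths, against 23.1% of all genes tested. Of these, 176 were among the 331 tested members of the pericentromere and 23 among the 92 of the knob.

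The median log2 fold change of the 533 members was 0.68, against -0.03 over all genes tested, and 401 of the 533 lay above 0, against 48.7% of all genes. By segment the median was 1.01 in the pericentromere (284 of 331 above 0), 0.62 between knob and pericentromere (21 of 27), 0.25 in the knob (58 of 92), -0.04 on the long arm (35 of 71) and -0.38 on the distal short arm (3 of 12). These counts describe only members with enough counts to be tested. With no filter, 701 members had a median of 0.53, against -0.24 over all genes, and the medians were 0.84 in the pericentromere, 0.26 in the knob and -0.06 on the long arm.

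Both PORI rpt2a libraries lay above both PORI libraries in 286 of the 533 tested members, against 27.5% of all genes, and below both in 63, against 29.6% of all genes. The pericentromere had 221 such members above and 17 below, the knob 33 above and 20 below, and the long arm 16 above and 18 below. At a log2 fold change above 1 there were 169 pericentromeric members and 17 knob members, against 17.0% of all genes, and below -1 there were 9 and 5, against 13.4% of all genes.

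Calls of single members depended on the tool and the filter. DESeq2 called 77 of 411 tested members higher (18.7%, against 8.70% of all genes) and 3 lower (0.730%, against 1.11%). With structural RNA and organelle genes left out, edgeR called 84 of 528 higher (15.9%, against 5.80% of all genes) and 2 lower (0.379%, against 0.861%). Without a low-count filter it called 69 of 701 higher (9.84%, against 1.56% of all genes) and 6 lower (0.856%, against 0.732%). The same 58 members were called in all 3 of these fits, 56 of them higher and 2 lower, where 6.21% of the genes with a test in each fit were called higher in all 3 and 0.594% lower. Of the 58, 52 lie in the pericentromere, 3 between knob and pericentromere, 2 in the knob and 1 on the long arm. Both knob members among them, AT4G04255 and AT4G04296, were lower in PORI rpt2a. The fits that share the 58 rest on the same libraries, and not every alternative gave calls. edgeR called no member with the size factors of DESeq2, with a minimum total of 50 counts or with library sizes from the 3 tables. The smallest adjusted p among the members was there 0.0813, 0.0908 and 0.219, in that order.

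The knob was mixed from gene to gene. AT4G03920 had 276 and 410 CPM in PORI rpt2a, against 112 and 122 CPM in PORI, a log2 fold change of 1.55 ± 0.37 (SE; edgeR adjusted p = 0.0855). AT4G03790 had 78.2 and 93.7 CPM in PORI rpt2a, against 35.4 and 33.9 CPM in PORI, with a log2 fold change of 1.31 ± 0.29 (adjusted p = 0.0758). AT4G03860 had 60.0 and 60.5 CPM in PORI rpt2a, against 29.4 and 25.6 CPM in PORI (log2 fold change 1.13 ± 0.29, adjusted p = 0.0934). In each of these 3 the PORI rpt2a libraries lay above the PORI libraries.

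AT4G03840 (log2 fold change 0.99 ± 0.30), AT4G04530 (0.97 ± 0.28) and AT4G03650 (0.90 ± 0.31) also had both PORI rpt2a libraries above both PORI libraries. AT4G04655, the last member of the knob, had 49.9 and 43.1 CPM in PORI rpt2a, against 42.9 and 36.8 CPM in PORI, a log2 fold change of 0.23 ± 0.29. AT4G04293 ran the other way, at 50.05 and 27.3 CPM in PORI rpt2a, against 73.9 and 79.6 CPM in PORI (log2 fold change -0.98 ± 0.38, adjusted p = 0.195). Of the 8 knob members with the highest CPM, 7 were thus higher in PORI rpt2a by the fitted value and 1 was lower, with adjusted p-values of at least 0.0758.

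AT4G04255 had the smallest adjusted p of the knob. It held 14 and 8 counts in PORI rpt2a, against 82 and 62 in PORI, a log2 fold change of -2.23 ± 0.44 (edgeR adjusted p = 0.0700). Its 22 nt reads numbered 0 and 1 in PORI rpt2a, against 21 and 10 in PORI, a ratio 23.8-fold lower per library size with an exact 95% counting interval of 3.96-fold to 969-fold. AT4G04296, which lies close to AT4G04293 by locus number, held 43 and 7 counts in PORI rpt2a, against 151 and 83 in PORI (log2 fold change -1.97 ± 0.46, adjusted p = 0.0804). AT4G04547 carried the highest 24 nt share of any member of at least 100 counts, 81.2%, and had 5.42 and 4.96 CPM in PORI rpt2a, against 4.36 and 8.77 CPM in PORI, with overlap.

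**Figure D5:**
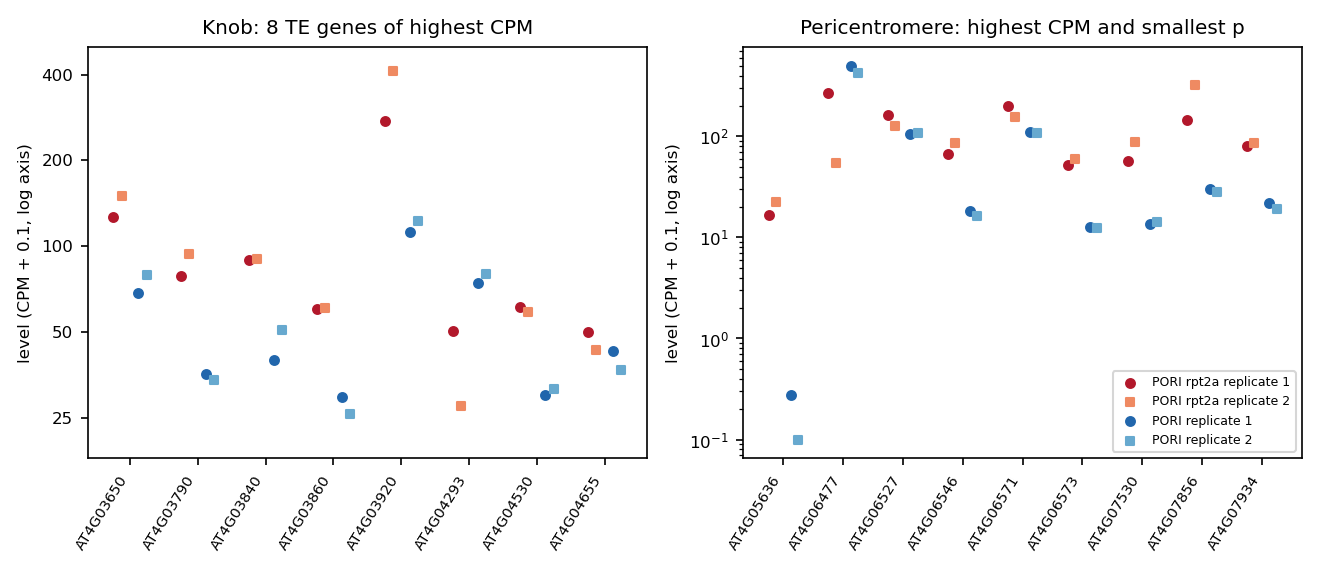
Small RNA level over all lengths (y axis, CPM + 0.1, log axis) of the 8 knob TE genes of highest CPM (left) and of the pericentromeric TE genes of highest CPM or smallest p (right), with 1 point per library. AT4G03920 lies at 276 and 410 CPM in PORI rpt2a against 112 and 122 CPM in PORI, and AT4G04293 (50.05 and 27.3 CPM against 73.9 and 79.6 CPM) and AT4G06477 (267 and 55.0 CPM against 500 and 426 CPM) run the other way.

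In the pericentromere the differences of single TE genes reached further. AT4G07856 had 145 and 320 CPM in PORI rpt2a, against 30.0 and 27.8 CPM in PORI, a log2 fold change of 3.01 ± 0.48 (edgeR adjusted p = 0.0684). Its 24 nt counts were 341 and 196 in PORI rpt2a, against 84 and 45 in PORI, and 34.6% of its reads over all libraries were 22 nt long. AT4G06517 had 101 and 176 CPM in PORI rpt2a, against 13.6 and 26.5 CPM in PORI (log2 fold change 2.78 ± 0.49), with 35.3% of its reads at 22 nt. In these 2 members the PORI rpt2a libraries lay far above the PORI libraries and also far from each other.

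Other members had closer replicates. AT4G06573 had 52.2 and 60.0 CPM in PORI rpt2a, against 12.7 and 12.4 CPM in PORI, a log2 fold change of 2.15 ± 0.30. AT4G07934 averaged 83.5 ± 3.86 CPM in PORI rpt2a, against 20.4 ± 1.97 CPM in PORI (SD of 2 libraries), and its log2 fold change was 2.03 ± 0.30. AT4G06546 had 66.7 and 86.2 CPM in PORI rpt2a, against 18.3 and 16.3 CPM in PORI (2.14 ± 0.31). AT4G07530, with log2 fold change 2.38 ± 0.35, had 56.6 and 88.2 CPM in PORI rpt2a, against 13.6 and 14.1 CPM in PORI. The edgeR adjusted p of each of these 4 was 0.0684. All 4 were named for their small p-values in these same libraries. A gap between genotypes wider than the gap between replicates, seen in each, follows from that choice.

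AT4G05636 was almost without small RNA in PORI. It held 92 and 45 counts in PORI rpt2a, against 1 and 0 in PORI, a ratio of 179-fold with an exact 95% counting interval of 31.5-fold to 7105-fold. Its 24 nt reads numbered 37 and 21 in PORI rpt2a, against 1 and 0 in PORI, and its 22 nt reads 26 and 11, against 0 and 0, which is at least 16.1-fold higher against a floor of 3 counts over the PORI libraries. With an edgeR adjusted p of 0.0684 it too missed the threshold.

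For 3 further members the reads of a single size were at 0 in both PORI libraries. At 21 nt, AT4G06496 had 18 and 10 counts in PORI rpt2a and 0 in both PORI libraries, at least 12.2-fold higher. At 22 nt, AT4G06624 had 19 and 7 counts in PORI rpt2a and none in PORI (at least 11.3-fold higher), and AT4G06550 had 16 and 8 counts in PORI rpt2a and none in PORI (at least 10.4-fold higher). Over all lengths AT4G06496, AT4G06624 and AT4G06550 averaged 3.41, 1.24 and 1.85 CPM in PORI, so that reads of other sizes were present there.

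Several pericentromeric members stood out by 21 nt or 22 nt reads. AT4G08013 had the highest 22 nt share of any member of at least 100 counts, 42.3%, with 15.5% at 21 nt and 28.0% at 24 nt. It lay at 11.2 and 36.2 CPM in PORI rpt2a, against 4.36 and 1.95 CPM in PORI, a log2 fold change of 2.83 ± 0.71. AT4G07339, with 36.6% at 22 nt, lay at 13.2 and 14.9 CPM in PORI rpt2a, against 4.36 and 6.09 CPM in PORI. AT4G06623, with the highest 21 nt share, 17.0%, lay at 9.76 and 13.9 CPM in PORI rpt2a, against 1.57 and 2.19 CPM in PORI.

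Among members with the smallest p at 21 nt, AT4G06660 (log2 fold change over all lengths 1.87 ± 0.29), AT4G06574 (2.01 ± 0.36) and AT4G08113 (1.91 ± 0.31) had both PORI rpt2a libraries above both PORI libraries. AT4G07920, chosen by its 24 nt reads, had 207 and 105 counts of 24 nt in PORI rpt2a, against 52 and 28 in PORI, a log2 fold change of 2.47 ± 0.38 within the 24 nt fit (adjusted p = 0.0767). AT4G05640, with 16.6% of its reads at 21 nt, overlapped, at 9.94 and 21.8 CPM in PORI rpt2a against 9.58 and 0.731 CPM in PORI.

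The member with the most counts of all, AT4G06477, ran against its segment. It held 1476 and 111 counts in PORI rpt2a, against 2871 and 1749 in PORI, which is 267 and 55.0 CPM against 500 and 426 CPM (log2 fold change -1.52 ± 0.73, edgeR adjusted p = 0.280). Its 22 nt share was 7.41% and its 24 nt share 61.7%. Without it, the log2 difference of the pericentromeric sum was 1.15. Of the 331 tested pericentromeric members 8 others had a log2 fold change below -1, among them AT4G08692 with 71 and 7 counts in PORI rpt2a, against 211 and 131 in PORI, named here after its values were seen.

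Other members of high CPM in the pericentromere had smaller differences. AT4G06555 had 159 and 137 CPM in PORI rpt2a, against 55.8 and 47.0 CPM in PORI, a log2 fold change of 1.53 ± 0.31 (edgeR adjusted p = 0.0709). AT4G06571 had 201 and 156 CPM in PORI rpt2a, against 111 and 109 CPM in PORI (0.70 ± 0.33). AT4G06527 had 164 and 128 CPM in PORI rpt2a, against 106 and 107 CPM in PORI (0.45 ± 0.32). AT4G06614, chosen for its 24 nt share of 75.5%, overlapped, at 14.3 and 7.43 CPM in PORI rpt2a against 11.7 and 7.55 CPM in PORI.

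A known transposon within the pericentromere is AtMu1, a Mutator-like DNA transposon whose silencing depends on DNA methylation, represented by AT4G08680. It had 97.6 and 52.5 CPM in PORI rpt2a, against 46.5 and 64.5 CPM in PORI, a log2 fold change of 0.44 ± 0.40 (edgeR adjusted p = 0.553), and the genotypes overlapped. Its position by locus number is beyond AT4G08112, where the bin medians were already low.

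Between the knob and the pericentromere, AT4G05585 had 204 and 360 CPM in PORI rpt2a, against 135 and 140 CPM in PORI, a log2 fold change of 1.03 ± 0.40 (edgeR adjusted p = 0.20). AT4G05526 had 86.2 and 48.1 CPM in PORI rpt2a, against 168 and 151 CPM in PORI, a log2 fold change of -1.25 ± 0.39 (adjusted p = 0.133). AT4G05583 and AT4G05586 each had a log2 fold change of 0.24, with standard errors of 0.44 and 0.35. In AT4G05583, at 161 and 74.3 CPM in PORI rpt2a against 105 and 94.5 CPM in PORI, the PORI rpt2a libraries enclosed the PORI libraries. Without the most abundant member, AT4G05585, the log2 difference of the segment's sum was 0.34.

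On the long arm, AT4G15590 had 80.4 and 75.3 CPM in PORI rpt2a, against 49.1 and 45.5 CPM in PORI, a log2 fold change of 0.72 ± 0.28. AT4G10580 lay at 39.4 and 65.9 CPM in PORI rpt2a, against 34.3 and 30.4 CPM in PORI, and AT4G09710 at 50.2 and 57.5 CPM in PORI rpt2a, against 40.9 and 43.8 CPM in PORI. AT4G20365 lay at 49.1 and 37.7 CPM in PORI rpt2a, against 50.5 and 49.0 CPM in PORI, and AT4G28970, with 15.1% of its reads at 21 nt, overlapped between genotypes. AT4G16870, a copia-type retrotransposon gene within the RPP5 cluster of disease resistance genes, had 18.8 CPM in each PORI rpt2a library, against 8.71 and 9.26 CPM in PORI (log2 fold change 1.06 ± 0.33, edgeR adjusted p = 0.129).

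The long-arm member called in all 3 fits above was AT4G09313, with 128 and 37 counts in PORI rpt2a, against 30 and 22 in PORI (log2 fold change 1.97 ± 0.36, edgeR adjusted p = 0.0684). AT4G13470, where 78.8% of reads were 24 nt long, had 46 and 4 counts in PORI rpt2a, against 113 and 73 in PORI, a log2 fold change of -1.73 ± 0.60 (adjusted p = 0.162). Long-arm members thus lay on both sides of 0, from -1.83 to 1.97.

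The 4 members of highest CPM on the distal short arm had fitted log2 fold changes below 0 with all libraries, but when 1 library was left out AT4G02490 ranged from -0.69 to 0.22 and AT4G03300 from -0.86 to 0.15. AT4G03310, with 77.6% of its reads at 24 nt, had 67.4 and 34.7 CPM in PORI rpt2a, against 72.8 and 76.7 CPM in PORI (log2 fold change -0.54 ± 0.39). AT4G03300 had 60.7 and 30.7 CPM in PORI rpt2a, against 64.1 and 51.6 CPM in PORI (-0.33 ± 0.40). AT4G01490 (-0.27 ± 0.29) and AT4G02490 (-0.20 ± 0.43) were closer to 0. RE2 (AT4G02960), a copia-type retrotransposon and with SADHU5-1 one of the 2 members that have a symbol of their own in the reference gene table, had 55 and 11 counts in PORI rpt2a, against 24 and 22 in PORI (0.74 ± 0.47). SADHU5-1 (AT4G01525) had 2 and 0 counts in PORI rpt2a, against 7 and 6 in PORI, too few to be tested.

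Members differed widely in their read lengths. Over the 374 members of at least 100 counts, the 22 nt share over all libraries ran from 2.98% to 42.3% with a median of 17.3%, and the 24 nt share from 28.0% to 81.2% with a median of 56.9%. Both PORI rpt2a libraries had a higher 22 nt share than both PORI libraries in 204 of the 374, against 35.5% of all genes of at least 100 counts, and a lower one in 11, against 10.0%. The 24 nt share was lower in both PORI rpt2a libraries in 158, against 35.4% of all such genes, and higher in 17, against 7.26%. The 21 nt share was higher in both in 136, against 28.0% of all such genes, and lower in 21, against 10.6%. In the knob the 22 nt share was higher in both in 37 of 61 members, in the pericentromere in 126 of 236 and on the long arm in 25 of 48.

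Members with a larger 22 nt share in PORI tended to have higher fold changes in PORI rpt2a. Across the 374 members, the 22 nt share in the PORI libraries and the log2 fold change correlated with a Spearman coefficient of 0.57, and within segments with 0.40 in the knob (n = 61), 0.51 in the pericentromere (n = 236) and 0.26 on the long arm (n = 48). Members are not independent replicates, and both measures use the same PORI libraries, so this is a description of these libraries. Counts were spread over many members, since the 10 with the most counts held 15.3% of all member counts and the top 100 held 55.3%.

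TE genes of the other chromosomes gave similar values. Their summed log2 difference was 0.62 on chromosome 1, 0.74 on chromosome 2, 0.80 on chromosome 3 and 0.79 on chromosome 5, against 0.78 on chromosome 4, and edgeR called no TE gene on any of them. DESeq2 called 35 higher and 1 lower of 379 tested on chromosome 1, and 61 and 1 of 437 on chromosome 2. It called 75 and 0 of 483 on chromosome 3 and 76 and 0 of 445 on chromosome 5, against 77 and 3 of 411 on chromosome 4. Over all genes DESeq2 called 8.70% higher and 1.11% lower. The difference between chromosomes was not tested. On chromosome 3 the 22 nt share of TE genes was 19.9% and 25.7% in PORI rpt2a, against 13.8% and 14.2% in PORI.

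Protein-coding genes of the same chromosome 4 segments were placed by their order in the reference gene table. Those of the pericentromere together had 769 and 860 CPM in PORI rpt2a, against 519 and 516 CPM in PORI, a log2 difference of 0.65, and their 22 nt share was 19.5% and 26.3% in PORI rpt2a, against 13.5% and 15.2% in PORI. Those of the knob had 246 and 265 CPM in PORI rpt2a, against 265 and 281 CPM in PORI, a log2 difference of -0.10, whereas the TE genes around them had 0.55. On the long arm protein-coding genes had a log2 difference of -0.38, against 0.05 for its TE genes. Small RNA counts of protein-coding genes can include fragments of their mRNAs, whose part in these values was not tested.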

How the data were processed

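Small RNA libraries of 2 PORI rpt2a and 2 PORI seedling samples were analysed. The authors deposited raw whole-number counts per gene, 1 column per read length between 18 and 26 nt per the file headers. Per the submitters' processing notes, HTSeq, DESeq2, cutadapt 1.9.1, FastQC 0.11.2 and CASAVA 1.8.2 were among the tools and TAIR10 was the build. For the aligner, strand use and reads with several map positions, the method was not given in the sources used here. TE genes are often near-identical copies, so a shared read may be counted at any copy and single members' values are uncertain. Families, sequences and coordinates were not used here. Members were matched to a gene table of TAIR10.1 for order and symbols (711 of 711).

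Counts of the whole gene table (2886928 to 4806891 per library) were tested with edgeR 4.0.16 (R 4.3.3), quasi-likelihood, with TMM factors, the filterByExpr filter (minimum total 15, minimum count 10), group as the only term and a Benjamini-Hochberg threshold of 0.05 over all genes, with 1 fit for all lengths and 1 each for 21, 22 and 24 nt. The fit of a single length is scaled within that length, unlike the CPM. The standard error of a log2 fold change is its size over the square root of F. Sums and shares were compared by exact permutation. Ratios with 1 to 3 counts in a group have an exact 95% interval, and 0 was bounded by 3 counts over the group. Scripts were tested on simulated data. Alternatives were DESeq2 1.42.0, other size factors, library sizes and filters, the replicate number as a block, other segment bounds and each library left out. Sums and plots used Python 3.11.15, pandas 2.3.3, scipy 1.17.1 and matplotlib 3.10.9.

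Members, segments, gene choices and tests were chosen with earlier results of these data known. The rule for named members took the highest CPM (10 of all members, 8 in the knob, 4 in each other segment), the 5 smallest p-values of each fit, the 4 highest shares of each length at 100 counts or more, and established names, which gave 49 members. The knob and long-arm members called in 3 alternative fits, 2 members with a symbol and AT4G08692 were added after values were seen.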

Additional observations from a re-analysis of the deposited data

Results flagged for a closer look

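A signal outside the comparisons above came from the separate table of annotated transposable elements, which was not used for the TE genes. Its 4967 entries of chromosome 4 held 22 nt reads at 3971 and 3118 counts in PORI rpt2a, per 1000000 counts of the 3 tables, against 2275 and 1917 in PORI, a log2 difference of 0.75 without overlap (exact permutation p = 0.333, the smallest that 2 against 2 libraries allow). Over all lengths the same entries had 24870 and 14448 in PORI rpt2a, against 23026 and 18613 in PORI, a log2 difference of -0.13 with overlap, and at 24 nt a log2 difference of -0.36 with overlap. At 21 nt these entries had a log2 difference of -0.12 with overlap. Their 21 nt share was 9.84% and 10.7% in PORI rpt2a, against 9.86% and 10.5% in PORI. On the same scale the 711 TE genes had a log2 difference of 0.51 over all lengths, 1.13 at 21 nt, 1.26 at 22 nt and 0.25 at 24 nt. The tables may share reads, and the cause of the difference between them was not tested.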

How the results depend on the processing

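The counts of called members, 0 in each fit, were the results that moved most. Over all lengths 75 of 701 tested members were called without a low-count filter, 86 of 528 without structural RNA and organelle genes, and 80 of 411 by DESeq2. With the replicate number as a block it was 93 of 533 (90 higher and 3 lower, against 6.15% and 1.32% of all genes). At 21 nt, 31 of 126 were called with library sizes from the 3 tables (31 higher and 0 lower, against 9.12% and 0.99% of all genes). Without a filter it was 11 of 632 (all higher, against 0.234% of all genes). At 22 nt, 100 of 237 were called with the 3-table sizes (99 higher and 1 lower, against 24.9% and 1.40% of all genes). Without a filter it was 33 of 656 (32 higher and 1 lower, against 0.758% and 0.249%). Without structural RNA it was 12 of 226 (9 and 3, against 2.61% and 7.53%), and by DESeq2 5 of 115 (5 and 0, against 2.44% and 2.33%). At 24 nt, 84 of 693 were called without a filter (78 and 6, against 1.91% and 0.729%). With the replicate block it was 23 of 470 (21 and 2, against 2.05% and 0.852%), and by DESeq2 22 of 187 (20 and 2, against 5.74% and 2.00%). For each length, the other alternatives run on all libraries called no member. Over all lengths these were the size factors of DESeq2, a minimum total of 50 counts and the 3-table sizes. With the 3-table sizes the median of all genes tested was 0.36 at 21 nt and 0.90 at 22 nt, against -0.10 and 0.03 with TMM, so calls made there include that shift. Leaving out 1 library gave 0 to 249 calls over all lengths, 0 to 15 at 21 nt, 0 to 54 at 22 nt and 0 to 173 at 24 nt. The high ends came without PORI rpt2a replicate 1 (201 higher and 48 lower over all lengths, against 16.2% and 13.5% of all genes). At 21 nt these were 14 and 1 of 120 members tested, against 5.53% and 10.0% of all genes, at 22 nt 41 and 13 of 235, against 11.2% and 19%, and at 24 nt 132 and 41 of 469, against 17.3% and 18.6%. Over all lengths, the median log2 fold change of the tested members was 0.85 without PORI rpt2a replicate 2, against -0.07 over all genes. It was 0.80 without PORI replicate 1 and 0.70 without PORI replicate 2, against -0.01 and -0.03. These fits assume that the lone library varies like the other group. The labels do not say that replicate numbers pair the libraries, and deviations of same-numbered libraries correlated at 0.15 over all genes and 0.06 over the members. The long-arm sum over all lengths changed sign with the 3-table sizes (-0.22), with the gene-table total (-0.27) and when 1 library was left out (-0.0920 to 0.19), and its 24 nt sum with a narrower pericentromere (0.20) and when 1 library was left out (-0.37 to 0.0834). Of 64 fold changes of named members 9 changed sign when 1 library was left out: AT4G02490 (-0.69 to 0.22), AT4G03300 (-0.86 to 0.15), AT4G04547 (-0.73 to 0.32), AT4G05583 (-0.37 to 0.77), AT4G05586 (-0.0896 to 0.62), AT4G06614 (-0.33 to 0.64), AT4G08680 (-0.0254 to 0.89), AT4G20365 (-0.35 to 0.0622) and AT4G28970 (-0.16 to 0.71). With the gene-table total, added after the data were seen, the 24 nt sums of the knob (-0.0446) and of the stretch beside it (-0.0183) changed sign as well. The remaining 20 of 24 sums, all 18 length shares and all 4 ratios of knob to pericentromere kept their direction in the alternatives run. The cause of these changes was not tested.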
